A study of Rattus norvegicus with 44 samples.

Results

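Cyp7a1 encodes cholesterol 7α-hydroxylase, the P450 enzyme that starts the main route from cholesterol to bile acids in the liver. It was read here as the probe sets of a rat expression array whose single annotated symbol is Cyp7a1, and 2 of the 8740 probe sets that were not controls met that rule. The probe set J05460_s_at passed a filter on dim values and carries the results, and the probe set J05509Complete_seq_i_at did not pass it.

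The 44 arrays, 1 per liver sample, came from male Wistar rats of 8 weeks dosed daily by gavage with the compound R1 or R2, both known only by these codes, or with the vehicle, a citric acid buffer. Rats were killed 24 h after the last dose, and the labels give sampling times of 24 h or 336 h. In study 1 (24 h) there were 3 arrays for vehicle, 4 for R1 at 10 mg/kg/day, 3 for 30 mg/kg/day and 3 for 100 mg/kg/day. Study 2 (336 h) had R1 at 20 mg/kg/day on 5 arrays, R1 at 100 mg/kg/day on 4 and vehicle on 4. Study 3 (336 h) had R1 at 30 mg/kg/day on 4 arrays and vehicle on 5, and study 4 (24 h) had R2 at 300 mg/kg/day on 5 arrays and vehicle on 4. The labels give the arrays of a group replicate numbers and do not say that each was a separate animal, so the p-values rest on sample-to-sample spread that may be technical in part. Counts of livers below are counts of these liver samples, 1 per array, and not of known separate animals. Each study had its own vehicle arrays, and R2 was given at a dose that R1 was not.

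In hepatocytes Cyp7a1 protein is short-lived and its transcript is the main point at which bile acid output is set, so the gene is read as a gauge of that pathway. Bile acids returning from the gut lower it through the receptor Nr1h4 (FXR) and the repressor Nr0b2 (SHP) in the liver, and through a hormone from the intestine that acts on Fgfr4. In rodents the transcript also follows the time of day and feeding, in part through the clock output factor Dbp, so spread between untreated animals is usual.

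R2 at 300 mg/kg/day gave the lowest mean Cyp7a1 level of the 11 groups, and no other treated group passed the test for Cyp7a1. Signals, in the arbitrary units of the deposited values, were 2.93, 2.40, 2.34, 1.94 and 2.05 in the 5 livers given R2, against 71.8, 285.6, 108.5 and 120.8 in the 4 vehicle livers of the same study. All 5 R2 arrays lay below all 4 vehicle arrays and close to one another, at the percentiles 14 to 20.2 of their own arrays, against 77.7 to 89.4 for the vehicle arrays. Group means were 2.33 ± 0.385 with R2 and 146.7 ± 94.9 with vehicle (SD, n = 5 and 4). The log2 fold change was −4.66 ± 0.63 (SE), with a 95% interval from −5.93 to −3.38 and an adjusted p of 3.66e-07 in the limma fit over all arrays. Fold changes throughout are on the scale log2(signal + 2.888), which understates changes of dim genes. Set against the filter level of 9.17, below which signals are dim, the geometric mean of the vehicle livers was 13.96 times higher. As a ratio of group means, the fall of Cyp7a1 with R2 is thus given only as 13.96-fold or more. That bound allows for the dim R2 signal and leaves out the spread of the vehicle arrays.

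Cyp7a1 had the most negative fold change of the 3702 genes tested in that comparison. Genes with an adjusted p (Benjamini-Hochberg) under 0.05 are termed called, and with R2 these were 15.4% of the genes tested, made up of 6.62% higher and 8.81% lower than vehicle. Leaving out each array of the comparison in turn kept the fold change between −4.93 and −4.28 and the highest adjusted p at 1.12e-05. The exact 2-sided permutation test of Cyp7a1 alone gave p = 0.00794, the smallest it can give with these numbers of arrays. Adjusted over the 11 comparisons of 2 groups that were tested this way, that p was 0.0873, which is past 0.05.

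**Figure D1:**
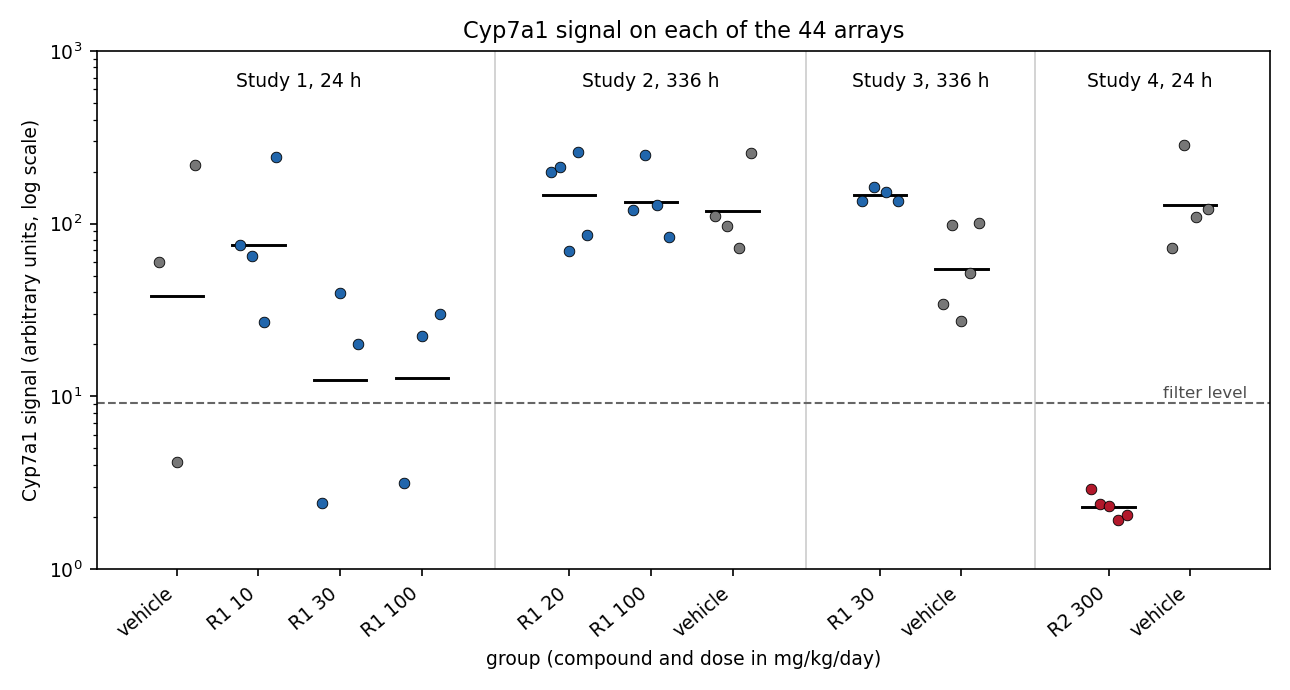
Cyp7a1 signal (arbitrary units, log axis) on each of the 44 arrays, by study and group, with points as arrays, black bars as geometric means and the dashed line as the filter level of 9.17. The 5 arrays with R2 sit between 1.94 and 2.93, below all 4 vehicle arrays of study 4, and the 4 arrays with R1 at 30 mg/kg/day for 336 h sit above all 5 vehicle arrays of study 3.

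At 24 h in study 1 Cyp7a1 did not pass the test at any dose of R1, and the 3 vehicle livers spread widely. Vehicle signals were 60.2, 4.18 and 218.1, a highest over lowest ratio of 52.2. With 10 mg/kg/day they were 75.4, 65.1, 27.1 and 241.9, with 30 mg/kg/day 2.40, 39.7 and 20.1, and with 100 mg/kg/day 3.15, 22.3 and 29.8. At 30 and 100 mg/kg/day every array lay below vehicle replicates 1 and 3, but vehicle replicate 2, at 4.18, was nearly as dim as the dimmest treated arrays.

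The fold change against vehicle was 0.78 ± 0.72 on the log2 scale at 10 mg/kg/day (adjusted p = 0.791, limma), where 1.03% of all genes were called. It was −1.42 ± 0.77 at 30 mg/kg/day (adjusted p = 0.552), with an interval from −2.97 to 0.14, where 1.32% of genes were called. At 100 mg/kg/day it was −1.44 ± 0.77 (adjusted p = 0.347), with an interval from −2.99 to 0.12, where 6.02% of genes were called. Both intervals hold 0 and also hold falls of several fold. These SEs rest on 1 spread shared by all 11 groups, for which the residual SD of Cyp7a1 was 1.045 on the log2 scale. The SD of log2 signal was 2.51 in the vehicle livers of study 1, and 1.25, 1.55 and 1.31 at 10, 30 and 100 mg/kg/day. SEs and intervals given for study 1 are thus narrower than the spread of its own arrays would give. The exact permutation p was 0.4 at both upper doses, and with 3 arrays against 3 it cannot go below 0.1.

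Vehicle replicate 2 decided these calls. Without it Cyp7a1 was called lower at 30 mg/kg/day, by −2.77 ± 0.73 (adjusted p = 0.0408), and at 100 mg/kg/day, by −2.79 ± 0.73 (adjusted p = 0.0159), while the value at 10 mg/kg/day turned to −0.58 (adjusted p = 0.912). Only vehicle replicates 1 and 3 are then left. The smallest falls with 1 array left out were −0.29 and −0.31 at 30 and 100 mg/kg/day, and the highest adjusted p were 0.95 and 0.905 (limma). On vehicle replicate 2 albumin stood at 11270, against 10950 and 11270 on vehicle replicates 1 and 3, and Tat, the tyrosine aminotransferase of hepatocytes, at 499.9, against 477.7 and 456.7. Egr1, an immediate early gene chosen after its values were seen, was dimmer there, like Cyp7a1, at 43.5, against 122.5 and 260.2. Dbp read 2.75 there, against 10.3 and 4.99, and 2 of these 3 values lie below the filter level. The part of Egr1 and Dbp in the Cyp7a1 value of that array was not tested.

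Between doses of study 1, Cyp7a1 averaged 18.4 ± 13.8 at 100 mg/kg/day and 102.4 ± 95.3 at 10 mg/kg/day (SD, n = 3 and 4). Of the 3 arrays at the upper dose, 2 lay below all 4 at the lower dose and the third, at 29.8, lay inside their range. The difference was −2.21 ± 0.72 on the log2 scale, with an adjusted p of 0.0743 in the limma fit, where 4.08% of genes were called. Leaving out replicate 3 of the 10 mg/kg/day group, the lowest of that group at 27.1, took it past the threshold at −2.68 ± 0.75 (adjusted p = 0.0379). With each array left out in turn the difference ran from −2.68 to −1.46, with a highest adjusted p of 0.482.

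**Figure D2:**
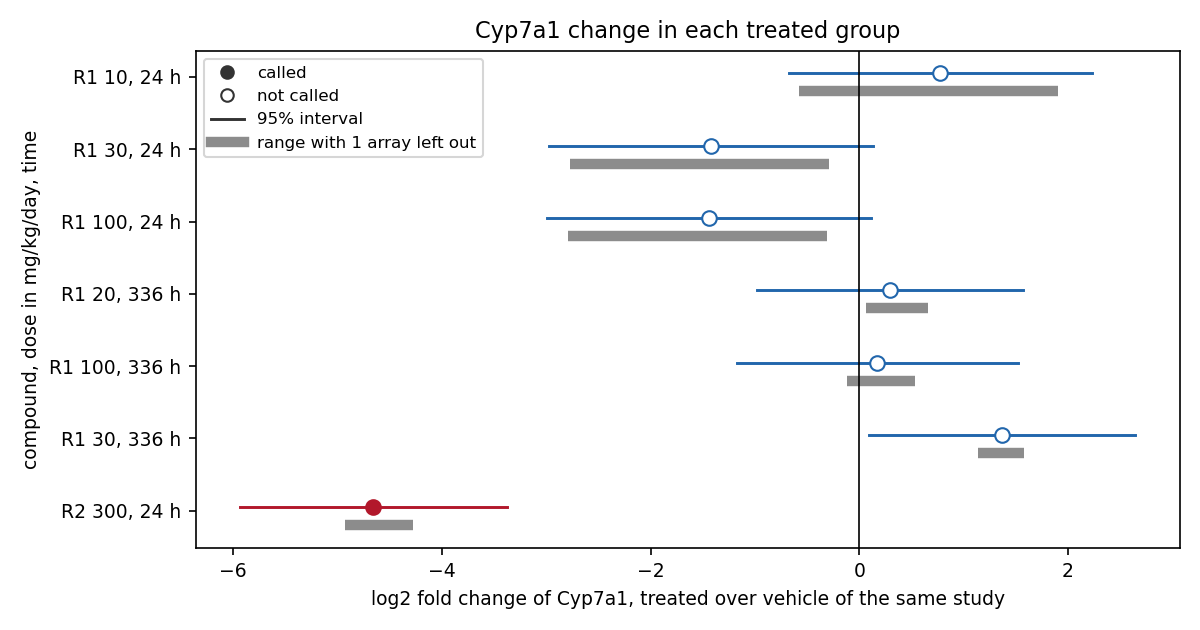
Log2 fold change of Cyp7a1 in each treated group over the vehicle of the same study (x axis), with the 95% interval as a thin line and the range of values with 1 array left out as a grey bar. The filled point, R2 at 300 mg/kg/day, is the only called group, at −4.66, and the grey bars of the 3 groups of R1 at 24 h run from −0.58 to 1.90, −2.77 to −0.29 and −2.79 to −0.31.

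At 336 h Cyp7a1 was bright in every R1 group, and no difference from vehicle passed the test. In study 2 the signals were 198.2, 212.6, 69.8, 258.1 and 86.3 at 20 mg/kg/day, 119.2, 249.2, 128.5 and 84.0 at 100 mg/kg/day, and 109.9, 96.4, 72.1 and 255.9 with vehicle. All 3 groups covered much the same range. The fold change against vehicle was 0.29 ± 0.63 at 20 mg/kg/day, with an interval from −0.98 to 1.57 (adjusted p = 0.902), where 4.29% of genes were called.

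At 100 mg/kg/day for 336 h the Cyp7a1 fold change was 0.17 ± 0.67, with an interval from −1.17 to 1.52 (adjusted p = 0.935, limma), where 9.97% of genes were called. The step from 20 to 100 mg/kg/day gave −0.12 ± 0.63 for Cyp7a1 (adjusted p = 0.975), where 3.84% of genes were called. The direction of both values depended on single arrays, since leaving out 1 array gave −0.12 to 0.54 for the first and −0.41 to 0.10 for the second.

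In study 3 the 4 livers given R1 at 30 mg/kg/day for 336 h had Cyp7a1 signals of 134.9, 163.2, 152.6 and 135.6, and the 5 vehicle livers had 34.0, 98.2, 27.4, 51.7 and 101.4. The groups did not overlap, and the treated arrays lay close together, with a highest over lowest ratio of 1.21, against 3.71 in the vehicle arrays. Means were 146.6 ± 13.8 with R1 and 62.5 ± 35.2 with vehicle (SD, n = 4 and 5), and the log2 fold change was 1.37 ± 0.63, with an interval from 0.09 to 2.64. That gave p = 0.0364 before adjustment and 0.188 after it in the limma fit, where 10.9% of genes were called, and an exact permutation p of 0.0238, or 0.131 adjusted over 11 comparisons. With study 3 fitted alone, the residual spread was smaller and the same change, 1.37 ± 0.33, was called (adjusted p = 0.0184).

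The 2 doses of R1 given in both times can be set side by side only across studies. The change at 30 mg/kg/day was 1.37 at 336 h in study 3 and −1.42 at 24 h in study 1, a difference of 2.78 ± 1.00 on the log2 scale (adjusted p = 0.249, limma), where 0.945% of genes were called. Without vehicle replicate 2 of study 1 that difference was 4.14 ± 0.91 and was called (adjusted p = 0.013). With each array left out in turn it ran from 1.66 to 4.14, with a highest adjusted p of 0.609. At 100 mg/kg/day the change was 0.17 at 336 h in study 2 and −1.44 at 24 h in study 1, a difference of 1.61 ± 1.02 (adjusted p = 0.472), where 5.11% of genes were called. Time cannot be told apart from study in either difference.

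Vehicle livers of the same sampling time were also set against each other across studies, and Cyp7a1 did not pass the test there. In the vehicle of study 3 it differed from that of study 2 by −1.07 ± 0.63 (adjusted p = 0.262, limma), in a comparison where 16.7% of genes were called. In the vehicle of study 4 it differed from that of study 1 by 1.51 ± 0.72 (adjusted p = 0.235), where 4.67% of genes were called. Without vehicle replicate 3 of study 1, its brightest array at 218.1, the difference between the vehicles of studies 4 and 1 was 2.64 ± 0.74 and was called (adjusted p = 0.03). With each array left out in turn it ran from 0.15 to 2.64, with a highest adjusted p of 0.956.

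Ordered by mean log2 signal, the 11 groups ran from R1 20 mg/kg/day in study 2, R1 30 mg/kg/day in study 3 and R1 100 mg/kg/day in study 2, through the vehicles of studies 4 and 2, R1 10 mg/kg/day in study 1, and the vehicles of studies 3 and 1, to R1 30 and R1 100 mg/kg/day in study 1 and R2 in study 4. Every neighbour in that order overlapped the next in single arrays, except R1 100 mg/kg/day of study 1, whose lowest array (3.15) lay above the highest of R2 (2.93). R2 at 300 mg/kg/day and R1 at 100 mg/kg/day, the highest 24 h dose of each, averaged 2.33 ± 0.385 and 18.4 ± 13.8, and since dose, study and vehicle differ these levels are not compared.

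Cyp7a1 was among the most variable transcripts within groups, mostly through the arrays of study 1. Its residual SD was 1.045 on the log2 scale, against a median of 0.425 over the tested probe sets, and only 19 of 6361 probe sets had a larger one. The SD of log2 signal was 0.10 with R2, where all values lie below the filter level and the offset compresses the spread, and 0.82 in the vehicle livers of study 4. It was 0.13 with R1 at 30 mg/kg/day for 336 h, among the brightest groups, 1.31 and 1.55 with R1 at 100 and 30 mg/kg/day for 24 h, and 2.51 in the vehicle livers of study 1. Outside study 1 the largest was 0.83, with R1 at 20 mg/kg/day for 336 h. The other Cyp7a1 probe set, J05509Complete_seq_i_at, had group means from 0.28 to 2.22 and no array above 7.85, so it was below the filter level in all 44 livers and gives no second reading of the gene.

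The 10 hepatocyte markers, albumin among them, were all measured above the filter level in every group, with summed signals from 52150 to 56200 in R2 livers and from 54980 to 60140 in the vehicle livers of study 4. With R2 15.4% of all genes were called, and the marker counts that follow stand against that share. Of these 10 only Tat was called with R2, by −1.13 (limma, with 5 of the 10 under an unadjusted 0.05), and without R2 replicates 1 and 2 together it was not (−0.65, adjusted p = 0.159). Of 3 tested bile duct markers Epcam was called higher with R2, by 1.08, with Spp1 below the filter level in both groups and sums of 68.6 to 98.9, against 28.6 to 59.7. None of 3 macrophage markers, none of 3 endothelial and none of 4 lymphocyte and neutrophil markers was called (limma, with 0 of these 10 under an unadjusted 0.05). Of 6 stellate cell and fibroblast markers Acta2 fell by 1.93, and of 2 intestine markers Fabp2 was higher by 1.14. The Epcam and Fabp2 calls ended without vehicle replicate 1 (adjusted p = 0.0627 and 0.109), and the Acta2 call without R2 replicate 2 (adjusted p = 0.0501). Sets of 2 to 10 markers are too small to tell such counts from the share of all genes, so they do not show whether cell content changed. In whole liver, fewer cells of a type and less RNA per cell cannot be told apart, and the part of these markers in the Cyp7a1 result was not tested. Within a group, arrays correlated between 0.924 and 0.974 over the tested probe sets.

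Most of the other enzymes of bile acid synthesis did not pass the test with R2. Of the 11 tested besides Cyp7a1, 3 were called, 1 higher and 2 lower, against 15.4% of all genes, and their median fold change was −0.34, against −0.07 over all genes. Besides Cyp7a1 the largest change was in Acox2, the peroxisomal oxidase of the bile acid side chain, with signals of 111.7, 111.8, 144.7, 118.9 and 81.0 in R2 livers and 324.4, 297.0, 264.2 and 307.9 in vehicle livers. All R2 arrays were below all vehicle arrays, and Acox2 fell by 1.39 ± 0.21 on the log2 scale (adjusted p = 4.53e-06, limma). Hsd17b4, the next peroxisomal enzyme of that chain, was higher by 0.57 ± 0.14 (adjusted p = 0.00377), a call that ended with each study fitted alone (adjusted p = 0.0575).

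Baat, which joins bile acids to taurine and glycine, fell by 0.67 ± 0.22 with R2 (adjusted p = 0.0318), but the call was lost without any 1 of vehicle replicates 1 and 3 and R2 replicates 1 and 2 (highest adjusted p 0.175), and with arrays weighted by quality (adjusted p = 0.116). Cyp27a1, which opens the alternative route from cholesterol, differed by −0.06 ± 0.17 (adjusted p = 0.854), with means of 699.8 ± 156.3 in R2 livers and 742.8 ± 241.4 in vehicle livers (SD, n = 5 and 4). Cyp7b1, the oxysterol hydroxylase of that route, differed by −0.47 ± 0.26 (adjusted p = 0.226), and Scp2, the thiolase of the side chain, by −0.65 ± 0.24 (adjusted p = 0.0574). Without R2 replicates 1 and 2 together, a check chosen after seeing the data, Cyp7a1 was lower by −4.72 and 1 of the other 11 genes was called, against 10.2% of all genes.

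**Figure D3:**
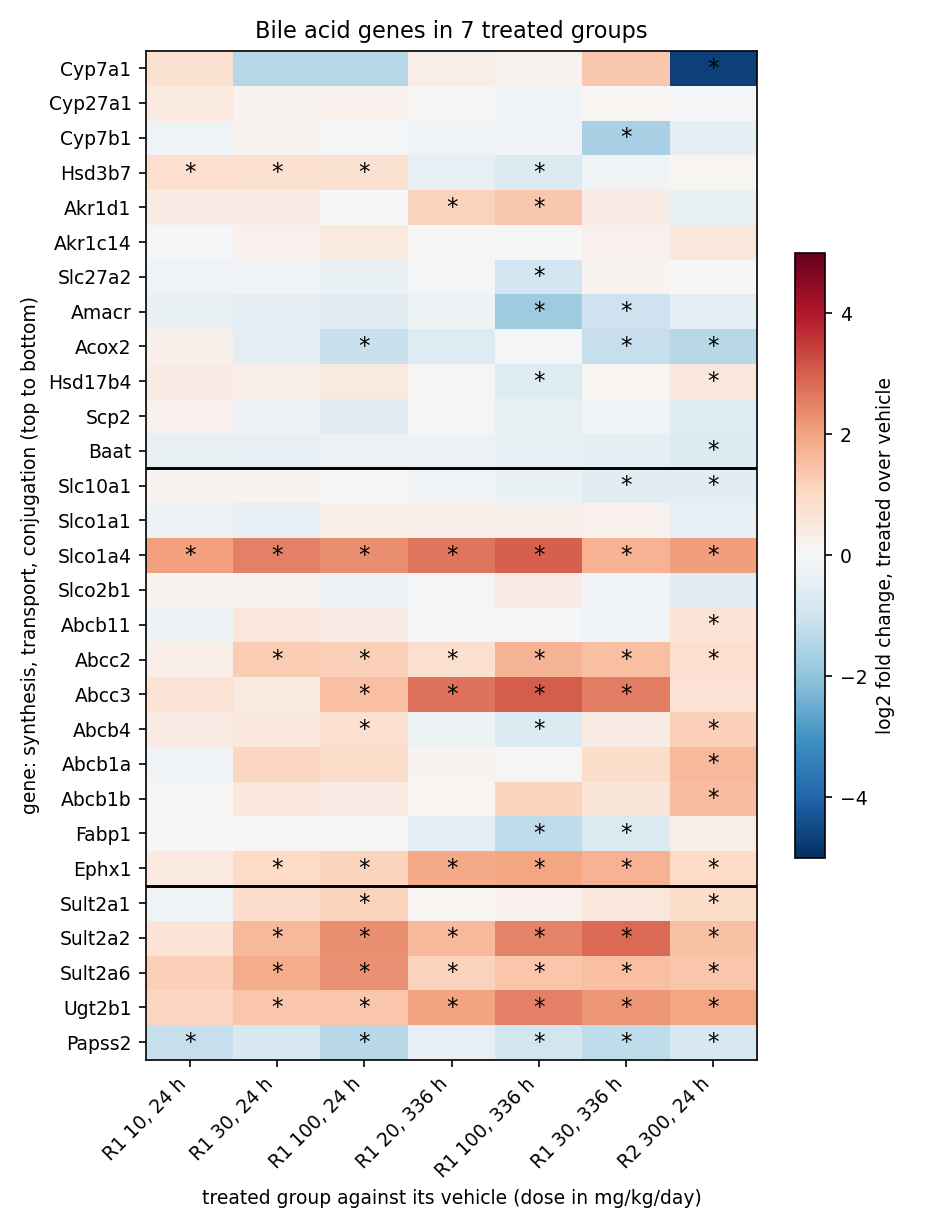
Log2 fold change (colour scale) of bile acid synthesis, transport and conjugation genes (rows) in the 7 treated groups over the vehicle of the same study (columns), with asterisks for called values. In the R2 column Cyp7a1 stands at −4.66 while Cyp27a1 stands at −0.06, and Slco1a4 is called higher in all 7 columns.

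With R1, Cyp7a1 was called in none of the 6 groups. Of the other 11 synthesis genes 1, 1 and 2 were called at 10, 30 and 100 mg/kg/day for 24 h, against 1.03%, 1.32% and 6.02% of all genes. At 336 h the counts were 1 and 5 at 20 and 100 mg/kg/day, against 4.29% and 9.97%, and 3 at 30 mg/kg/day, against 10.9%. At 24 h Hsd3b7, the dehydrogenase that follows Cyp7a1 in the pathway, was higher at 10, 30 and 100 mg/kg/day, by 0.85 ± 0.19, 0.79 ± 0.21 and 0.77 ± 0.21 (adjusted p = 0.0113, 0.0349 and 0.0158, limma), and was the only one called at the lower doses. Leaving out vehicle replicate 1 or 2, among other single arrays, ended each of these calls, with highest adjusted p of 0.149, 0.225 and 0.14. At 100 mg/kg/day Acox2 was also called, lower by −1.12 ± 0.26 (adjusted p = 0.00359), with means of 138.8 ± 9.2 with R1 and 306.4 ± 31.8 with vehicle (SD, n = 3 each).

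At 336 h Akr1d1, the reductase of the steroid ring, was higher at 20 mg/kg/day by 1.17 ± 0.25 (adjusted p = 0.00174) and at 100 mg/kg/day by 1.34 ± 0.26 (adjusted p = 0.000234). At 100 mg/kg/day 4 further genes were lower, among them Amacr, the racemase of the side chain, by −1.78 ± 0.33 (adjusted p = 0.000105), and Hsd3b7, by −0.73 ± 0.18 (adjusted p = 0.00388). In study 3, where Cyp7a1 lay above vehicle in all 4 livers, 3 synthesis genes were called and all were lower. Cyp7b1 fell by 1.61 ± 0.26 (adjusted p = 8.93e-06), with means of 9.28 ± 4.41 with R1 and 32.7 ± 8.4 with vehicle (SD, n = 4 and 5), and Acox2 fell by 1.17 ± 0.21 (adjusted p = 9.61e-05). The third, Amacr, fell by 1.03 ± 0.31 (adjusted p = 0.0246), a call that ended without any 1 of R1 replicates 1, 2 and 3 and vehicle replicate 5 (highest adjusted p 0.133), and with the replicate number as a block (adjusted p = 0.0929).

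Of 18 tested regulators of Cyp7a1, 3 were called with R2 and all were lower, against 15.4% of all genes. The transcripts of the bile acid feedback arm did not pass the test. Nr1h4, the bile acid receptor, averaged 84.0 ± 12.7 in R2 livers and 86.8 ± 11.5 in vehicle livers (SD, n = 5 and 4), a difference of −0.05 ± 0.17 (adjusted p = 0.898, limma). Its target Nr0b2, which represses Cyp7a1, differed by −0.30 ± 0.43 (adjusted p = 0.71), Fgfr4 by −0.15 ± 0.19 (adjusted p = 0.654), and Hnf4a, an activator of the Cyp7a1 promoter, by 0.32 ± 0.16 (adjusted p = 0.185). These are transcript levels, and receptor activity was not measured.

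The regulators called lower with R2 were Foxa1, Cebpa and Nr5a2. Foxa1, a liver transcription factor, had signals of 15.6, 15.5, 16.9, 16.9 and 15.7 in R2 livers and 27.0, 52.0, 41.5 and 40.7 in vehicle livers, with no overlap, and fell by 1.15 ± 0.28 (adjusted p = 0.00286, limma). Cebpa, another such factor, fell by 0.84 ± 0.21 (adjusted p = 0.00365) on the brighter of its 2 probe sets, while the other was not called. Nr5a2, a nuclear receptor that binds the Cyp7a1 promoter, had 1.72, 7.39, 2.47, 17.5 and 14.5 in R2 livers, overlapping the 16.6, 24.7, 20.2 and 15.7 of vehicle livers. It fell by 1.16 ± 0.39 (adjusted p = 0.0352), and leaving out any 1 of R2 replicates 1 to 3 or vehicle replicates 1 to 3 ended that call (highest adjusted p 0.142), as did weighting the arrays by quality (adjusted p = 0.178).

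Of 8 clock and clock output genes, 3 were called with R2, against 15.4% of all genes. Dbp, the output factor that drives Cyp7a1 in rodents, had signals of 5.04, 3.81, 1.88, 2.29 and 2.90 in R2 livers and 15.5, 14.4, 12.9 and 13.2 in vehicle livers. The groups did not overlap, and Dbp fell by 1.50 ± 0.43 (adjusted p = 0.0125, limma), on the brighter of 2 probe sets, while the other was not called. All 5 R2 values lie below the filter level. The geometric mean of Dbp in the vehicle livers was 1.52 times that level, a bound on the ratio of means that leaves out array spread. Per2, a core clock repressor, fell by 1.35 ± 0.36 (adjusted p = 0.00633), with all 5 R2 arrays and 2 of the 4 vehicle arrays below the filter level. The nuclear receptor Nr1d2 was higher by 1.05 ± 0.29 (adjusted p = 0.00886), a call that ended without vehicle replicate 3 (adjusted p = 0.052) or with each study fitted alone (adjusted p = 0.0511). Without R2 replicates 1 and 2 together 1 of the 8 was called, against 10.2% of all genes, and Per2, at −1.15, was not (adjusted p = 0.0636). The part of these genes in the Cyp7a1 result was not tested.

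**Figure D4:**
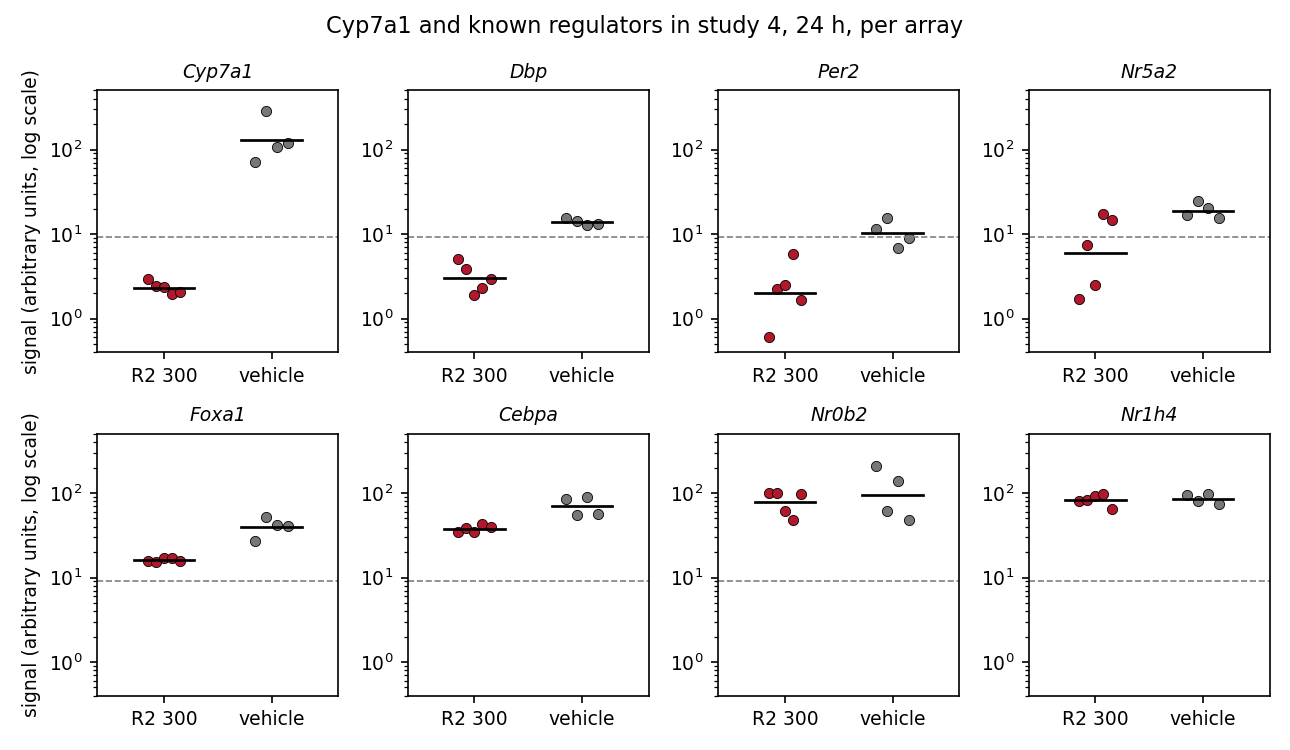
Signal (arbitrary units, log axis) of Cyp7a1 and 7 of its regulators or clock genes on the 9 arrays of study 4, R2 at 300 mg/kg/day left of vehicle, with points as arrays, bars as geometric means and the dashed line as the filter level of 9.17. Cyp7a1, Dbp, Per2, Foxa1 and Cebpa show no overlap between the groups, while Nr0b2 and Nr1h4 cover the same range in both.

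With R1 at most 2 of these 18 regulators were called in a group. The counts were 0, 0 and 1 at 10, 30 and 100 mg/kg/day for 24 h, against 1.03%, 1.32% and 6.02% of all genes. At 336 h they were 1 and 1 at 20 and 100 mg/kg/day, against 4.29% and 9.97%, and 2 at 30 mg/kg/day, against 10.9%. None of the 18 was called at 10 or 30 mg/kg/day at 24 h (limma, with 1 under an unadjusted 0.05 at each dose), and at 100 mg/kg/day Hnf4a was higher by 0.80 ± 0.20 (adjusted p = 0.00607), a call that ended without vehicle replicate 2 or R1 replicate 2 (highest adjusted p 0.0842). In study 3, where Cyp7a1 lay above vehicle, Fgfr4 fell by 0.66 ± 0.19 (adjusted p = 0.0135), with means of 27.7 ± 3.0 with R1 and 45.7 ± 7.5 with vehicle (SD, n = 4 and 5). That call ended without R1 replicate 3 (adjusted p = 0.056). Foxa3 fell by 0.82 ± 0.24 there (adjusted p = 0.0184), which was lost without R1 replicate 3 or 4 or vehicle replicate 2 (highest adjusted p 0.144) and with each study fitted alone (adjusted p = 0.0516). At 336 h in study 2, Dbp, which did not pass the test, differed by 1.33 ± 0.46 at 100 mg/kg/day (adjusted p = 0.0543), in livers whose Cyp7a1 differed by 0.17. There 2 of the 8 clock genes were called, against 9.97% of all genes, Nr1d1 higher by 1.535 and Bmal1 lower by −1.69 (adjusted p = 0.00602 and 0.0254, limma). In study 3, where Cyp7a1 differed by 1.37, 1 of the 8 was called, against 10.9%. That was Per2, lower by −1.16 (adjusted p = 0.0279). Leaving out single arrays ended the Bmal1 and Per2 calls (highest adjusted p 0.212 and 0.119).

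Of 12 tested genes of bile acid transport, 7 were called higher with R2 and 1 lower, against 6.62% and 8.81% of all genes. Of the 12, 9 fold changes were above 0 and 3 below it. The list holds Ephx1, an epoxide hydrolase, which was among those called higher, by 1.00 ± 0.22 (adjusted p = 0.000654). Slco1a4, a sinusoidal uptake carrier, averaged 1259 ± 366 in R2 livers and 285.8 ± 48.8 in vehicle livers (SD, n = 5 and 4), higher by 2.09 ± 0.26 (adjusted p = 4.07e-08, limma). Abcb4, which moves phospholipid into bile, was higher by 1.20 ± 0.20 (adjusted p = 1.31e-05), and the bile salt export pump Abcb11 was higher by 0.67 ± 0.20 (adjusted p = 0.0145). Slc10a1, the main bile acid uptake carrier, fell by 0.54 ± 0.19 (adjusted p = 0.0431). The Abcb11 call ended without vehicle replicate 1 (adjusted p = 0.153), and the Slc10a1 call without any 1 of vehicle replicates 1 and 4 and R2 replicates 1, 2 and 5 (highest adjusted p 0.132). The number called was between 5 and 9 with 1 array left out, and 5, all higher, without R2 replicates 1 and 2, against 10.2% of all genes. With R1, 1, 3 and 5 of the 12 were called at 10, 30 and 100 mg/kg/day for 24 h, against 1.03%, 1.32% and 6.02% of all genes. At 336 h the counts were 4 and 6 at 20 and 100 mg/kg/day, against 4.29% and 9.97%, and 6 at 30 mg/kg/day, against 10.9%.

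Slco1a4 was also called higher in all 6 groups of R1, by 1.60 or more with any 1 array left out, while Cyp7a1 was called in none of them. Abcc3, an export pump of the sinusoidal side, was higher at 336 h by 2.71 ± 0.32 at 20 mg/kg/day, 3.03 ± 0.33 at 100 mg/kg/day and 2.56 ± 0.32 at 30 mg/kg/day (adjusted p = 2.56e-08, 1.67e-09 and 5.48e-08, limma). The value at 20 mg/kg/day ran from 1.96 to 3.02 under other ways of processing. At 24 h Abcc3 was called higher with R1 at 100 mg/kg/day, by 1.49 (adjusted p = 0.00981). The vehicle livers of that study averaged 1.9, below the filter level. With R2 Abcc3 differed by 0.71 ± 0.32 (adjusted p = 0.126). All 5 tested genes of bile acid sulfation and glucuronidation were called with R2, against 15.4% of all genes, 4 higher and Papss2, which makes the sulfate donor, lower by −0.81 ± 0.24. The Papss2 call ended without vehicle replicate 1 (adjusted p = 0.0906) and without R2 replicates 1 and 2 together (adjusted p = 0.0699). Ugt2b1, a glucuronosyltransferase, was higher by 1.96 ± 0.31 (adjusted p = 7.85e-06), and near-identical members of the Ugt2b and Sult2a families can share signal on this array. With R1, 1, 3 and 5 of these 5 genes were called at 10, 30 and 100 mg/kg/day for 24 h, against 1.03%, 1.32% and 6.02% of all genes. At 336 h the counts were 3 and 4 at 20 and 100 mg/kg/day, against 4.29% and 9.97%, and 4 at 30 mg/kg/day, against 10.9%.

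The cholesterol that Cyp7a1 consumes is made by a pathway that had more genes called higher than lower in all 7 treated groups. Of 15 genes tested, 13 were called higher with R2, against 6.62% of all genes, and none was lower. The counts called higher with R1 were 10, 13 and 14 at 10, 30 and 100 mg/kg/day for 24 h, against 0.756%, 1.13% and 3.19% of all genes. At 336 h they were 6 (with 1 lower) and 14 at 20 and 100 mg/kg/day, against 2.51% and 4.97%, and 12 at 30 mg/kg/day, against 4.97%. Idi1, the isomerase of the isoprenoid steps, was higher by 3.99 ± 0.30 with R2, where Cyp7a1 fell by 4.66, and by 5.28 ± 0.32 with R1 at 100 mg/kg/day for 336 h, where Cyp7a1 differed by 0.17 (adjusted p = 1.08e-13 and 5.15e-17 for Idi1, limma). This list was chosen with earlier results of these data known, so its counts are a description.

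Of 15 other P450 system genes of hepatocytes, 8 were called with R2, 2 higher and 6 lower, against 6.62% and 8.81% of all genes. The largest fall among them was of Cyp2c23, an arachidonate epoxygenase, by 1.43 ± 0.23 (adjusted p = 1.1e-05, limma), with means of 1270 ± 389 in R2 livers and 3341 ± 804 in vehicle livers (SD, n = 5 and 4). Cyp2c11, the male-type P450 of rat liver, differed by −0.35 ± 0.34 (adjusted p = 0.56). Por, the reductase that supplies electrons to Cyp7a1 and the other microsomal P450 enzymes, was higher by 1.70 ± 0.33 (adjusted p = 0.000181). With R1 Por was also called higher at 10, 30 and 100 mg/kg/day for 24 h, by 1.94, 2.125 and 2.28. At 30 mg/kg/day for 336 h it was higher by 1.99, and at 20 and 100 mg/kg/day it was not called. Of the 15 genes, 2, 2 and 3 were called with R1 at 10, 30 and 100 mg/kg/day for 24 h, against 1.03%, 1.32% and 6.02% of all genes. At 336 h the counts were 4 and 8 at 20 and 100 mg/kg/day, against 4.29% and 9.97%, and 7 at 30 mg/kg/day, against 10.9%. Of 10 genes of cholesterol esters and lipoproteins 1 was called with R2, against 15.4% of all genes, the hepatic lipase Lipc, lower by −0.69 ± 0.17 (adjusted p = 0.00397), and with each study fitted alone it was not called (adjusted p = 0.0696).

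Among the 3702 genes, the 6 whose log2 signals followed Cyp7a1 most closely over the 44 arrays, each centred on the mean of its study, were Cldn3 (Pearson r = 0.724), Ggcx (0.663), Srebf1 (0.625), Nnt (0.615), Slc28a2 (0.604) and Aifm1 (0.588). The 4 most opposed were Trib3 (−0.637), Psmd4 (−0.63), Stip1 (−0.621) and Cltb (−0.61). The arrays share compound, dose and study, so these values are a description, and much of the likeness came from study 4: over the 35 arrays of the other studies r was 0.603 for Cldn3, 0.383 for Srebf1 and 0.265 for Slc28a2. Within groups r was 0.326 for Cldn3, −0.01 for Srebf1 and 0.603 for Aifm1.

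Cldn3, a tight junction protein, was the closest of these to Cyp7a1. The genes like and opposed to Cyp7a1 were picked over arrays that include the R2 livers. Their changes with R2, given here and below, thus went into that choice and are no separate support. Cldn3 signals ran from 101.2 to 154.6 in R2 livers and from 204.2 to 316.2 in vehicle livers, with no overlap, and it fell by 1.03 ± 0.17 (adjusted p = 2.13e-05, limma). It was also lower with R1 at 100 mg/kg/day for 24 h, by −0.90 ± 0.21 (adjusted p = 0.00443), a call that ended without vehicle replicate 3 of study 1 (adjusted p = 0.0718). With R1 at 30 mg/kg/day for 336 h it was higher by 0.60 ± 0.17 (adjusted p = 0.0164), a call that ended without R1 replicate 3 or vehicle replicate 3 (highest adjusted p 0.0641). Cyp7a1 differed from vehicle by −1.44 and 1.37 in those 2 groups and was called in neither.

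Srebf1, the factor that turns on fatty acid synthesis, had signals from 4.79 to 33.3 in R2 livers and from 75.8 to 102.5 in vehicle livers, and fell by 2.53 ± 0.32 (adjusted p = 1e-07, limma). It was also lower with R1 at 100 mg/kg/day for 24 h, by −2.03 ± 0.40 (adjusted p = 0.000428), and differed from vehicle by −0.16 ± 0.34 at the same dose for 336 h (adjusted p = 0.867). Slc28a2, a nucleoside carrier, fell by 1.93 ± 0.27 with R2 (adjusted p = 7.93e-07). Among the opposed genes Trib3, a pseudokinase known as a stress-response gene, ran from 67.2 to 116.9 in R2 livers and from 16.3 to 36.0 in vehicle livers, higher by 1.75 ± 0.45 (adjusted p = 0.00442).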

How the data were processed

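Each array was deposited as 1 intensity per probe set, which the authors computed with MAS5, per the submitters' processing notes. Sorted values were identical on all 44 arrays, so the deposited intensities had been quantile normalized over all 4 studies together, a step the labels do not give, and a level is relative to its array. Detection calls were not used here. Of 8799 probe sets 59 controls were left out. In a table of the platform's annotation 7017 probe sets had 1 symbol, 297 several and 1426 none, and each gene stands by its brightest probe set with 1 symbol.

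Values were log2(signal + 2.888), the offset being percentile 20. A probe set entered the tests if at least 1 group mean reached 9.17 (percentile 40); 6361 did, for 3702 genes. A model with 1 mean per group was fitted over 11 groups with limma 3.58.1 in R 4.3.3 (33 residual degrees of freedom, mean-variance trend, 2-sided), and p-values were Benjamini-Hochberg adjusted over the probe sets within each of 13 comparisons. The fit was tested on simulated data. Python 3.11.15, pandas 2.3.3 and matplotlib 3.10.9 made the figures.

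The gene and the 8 lists were chosen with earlier results of these data known. Named are called list genes (at most 6 per list and comparison), a few fixed genes, and the 6 most and 4 least like Cyp7a1. Some listed genes were not analysed here. Alternatives were other offsets and filters, no trend, robust variances, array weights, centring, each study alone, a replicate block, an exact permutation test and leaving out each array. Same-numbered arrays of 2 groups deviated together with correlations of −0.09 to 0.12 and only 1 pair was above 0.1, so the numbers were not taken as pairs. In study 2 these correlations were all positive, 0.0301 to 0.0851 at 20 mg/kg/day and 0.0552 to 0.115 at 100 mg/kg/day. Arrays with different numbers there had medians of −0.0279 and −0.0378, so a small shared part is possible in that study.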

Additional observations from a re-analysis of the deposited data

Results flagged for a closer look

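The dim Cyp7a1 probe set J05509Complete_seq_i_at had 1 array far from the others in each of 2 groups. It read 7.85 in replicate 3 of R1 at 100 mg/kg/day for 336 h, where the other arrays of the group were near its median of 0.23, and 7.64 in replicate 2 of R2 at 300 mg/kg/day, where the median was 0.21. Both values are below the filter level of 9.17. The rule was applied to 16 groups of 4 or more arrays over both probe sets, and chance alone passes about 1 group in 20. The brighter probe set had no such array in a group of 4 or more.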

How the results depend on the processing

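The fall of Cyp7a1 with R2 kept its direction under all alternatives, from −5.11 to −3.59, and its call under all but the exact permutation test (−4.66, adjusted p = 0.0873 over 11 comparisons). The unadjusted p of that test, 0.00794, cannot go lower with 9 arrays. The rise at 30 mg/kg/day for 336 h was called with each study fitted alone (1.37, adjusted p = 0.0184). No other alternative that kept all arrays changed a Cyp7a1 call. The replicate block gave −4.64 for R2 (adjusted p = 1.41e-05) and changed no Cyp7a1 call, and it was run only within studies. With 1 array left out, values ran from −0.58 to 1.90, −2.77 to −0.29 and −2.79 to −0.31 for R1 at 10, 30 and 100 mg/kg/day for 24 h, −0.12 to 0.54 for 100 mg/kg/day at 336 h, −2.68 to −1.46 for 100 against 10 mg/kg/day, −0.41 to 0.10 for 100 against 20 mg/kg/day, 1.66 to 4.14 for the 30 mg/kg/day effect between times, and 0.15 to 2.64 for the vehicle of study 4 against that of study 1. Counts of called probe sets rose under array weights to 633, against 407, at 100 mg/kg/day for 24 h, and to 452, against 282, at 20 mg/kg/day. With 1 array left out they were 37 to 96 (79 with all arrays), 73 to 110 (110) and 262 to 378 (407) at 10, 30 and 100 mg/kg/day for 24 h, and 457 to 676 (717) at 30 mg/kg/day for 336 h. The cause of these shifts was not tested. Of 2218 further values for the other named genes, 2040 kept their call, 178 lost it and 0 changed direction. Dim signal limits Cyp7a1 with R2 to a bound.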

Other observations

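Egr1, an immediate early gene that rises within minutes of a stimulus, had the highest correlation with Cyp7a1 over the deviations of the 44 arrays from their group means (r = 0.728). It was chosen after its values were seen, so this is a description. In the vehicle livers of study 1 Egr1 read 122.5, 43.5 and 260.2, in the same order as the Cyp7a1 signals of 60.2, 4.18 and 218.1. In the vehicle livers of study 4 the array with the most Cyp7a1 (285.6) also had the most Egr1 (599.5, against 163.6 to 202.6 on the others). Between groups the genes parted: Egr1 was lower than vehicle by −4.84 ± 0.63 with R1 at 20 mg/kg/day for 336 h (adjusted p = 3.52e-07, limma), where Cyp7a1 differed by 0.29, and differed by −1.21 ± 0.63 with R2 (adjusted p = 0.205), where Cyp7a1 fell by 4.66.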
